A study of Mus musculus with 6 samples.

Results

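Mx1 and Mx2 are neighbouring antiviral genes on mouse chromosome 16. They were described here through every deposited p300, PU.1 and H3K4me1 peak in a 140 kb window of build mm9, from 97660000 to 97800000, and through the reads of all 8 libraries in those peaks. The window held 50 of the 257266 peaks deposited for chromosomes 1 to 19 and X. Of these, 16 came from the p300 list after lipopolysaccharide (LPS), 0 from the untreated p300 list, 13 from the PU.1 list after LPS, 10 from the untreated PU.1 list and 11 from the H3K4me1 list. In the window, Mx1 lies near 97669000 to 97685000 and Mx2 near 97757000 to 97783000. These are approximate gene intervals, and no exon or transcription start was mapped on this build. By gene order in RefSeq (GRCm38.p6), Bace2 lies below Mx1, Fam3b between Mx1 and Mx2, and Tmprss2 above Mx2. RefSeq lists both Mx1 and Mx2 as transcribed pseudogenes in that assembly, which is of strain C57BL/6J and not of the strain studied.

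Mx proteins are dynamin-like GTPases made in cells that have received an interferon signal. Mouse Mx1 acts in the nucleus against influenza-type viruses, and mouse Mx2 acts in the cytoplasm. LPS, a glycolipid of the Gram-negative outer membrane, triggers interferon production in macrophages, and secreted interferon then switches on genes that carry interferon response elements. p300 is a histone acetyltransferase found at active enhancers and promoters, PU.1 is the ETS-family factor that shapes the macrophage lineage, and mono-methylated lysine 4 of histone H3 (H3K4me1) marks enhancers, active or not.

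Chromatin immunoprecipitation with sequencing was carried out in primary macrophages grown from the marrow of female Fvb mice in L929-conditioned medium, on day 7 of differentiation; the age of the mice was not given in the sources used here. Cells received LPS at 10 ng/ml for 2 h or no treatment. p300 had 2 biological replicates per condition, PU.1 had 1 library per condition, and H3K4me1 and input DNA had 1 library each, both from untreated cells. The 8 libraries held 5503587 to 6428281 distinct reads, so 1 read in the window stood for a similar share of each. The p300 libraries differed with their replicate number. Library sizes scaled on the reads in all p300 sites were 74.0% and 156% of the totals in LPS replicates 1 and 2, against 49.4% and 175% in untreated replicates 1 and 2. Repeated reads, removed here, were 4.03% and 25.8% of the LPS libraries, against 3.02% and 22.02% of the untreated ones. Values are therefore given for each library. In such pooled cells, a change in the number of cells with p300 on a site and a change in p300 per cell cannot be told apart. The PU.1 list deposited for untreated cells carries a header that names LPS. In the window, the 1 PU.1 peak of that list alone (97665360 to 97665761) held 10 LPS and 11 untreated PU.1 reads, while the 4 sites of the LPS list alone held 34, 9, 23 and 11 LPS reads, against 17, 1, 4 and 1 untreated reads. RNA was not measured, so neither the level of the Mx transcripts nor marker genes of macrophages could be checked, and the genes' own promoter sequences were not used here.

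After LPS, p300 peaks clustered at the upper end of the Mx1 interval and at both ends of the Mx2 interval, where the untreated list had no peak. The 16 LPS peaks covered 17108 bp, with a median width of 863.5 bp against 540 bp over the whole LPS list. The authors' score of a peak, 10 times its -log10 p-value, ranged from 50.64 to 775.89 in the window with a median of 187.92, against 70.51 over the list. The list's own lowest score was 50.01, so the weakest window peak, from 97666929 to 97667474, lay just inside the authors' threshold. Outside the window, the nearest LPS p300 peak lay 149241 bp below it with a score of 56.83, and no LPS p300 peak lay above it on chromosome 16. The nearest untreated p300 peaks lay 197978 bp below and 251176 bp above the window. Over the whole LPS list, 61.8% of p300 peaks overlapped no untreated p300 peak. The peaks define the locus, so the p300 values inside them are a description.

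Of the 16 peaks, 10 formed 3 clusters, in which neighbouring peaks were at most 1 kb apart. Among 11586 such runs of LPS p300 peaks in the genome, 65 held 3 or more peaks (0.561%), and 3 of these 65 lay in this window. One cluster of 3 peaks lay at the upper end of the Mx1 interval (97682370 to 97684799), one of 4 peaks across the lower end of the Mx2 interval (97755395 to 97760687), and one of 3 peaks across its upper end (97782004 to 97788420). Of this upper-end cluster, only the lowest peak reached into the Mx2 interval, which ends near 97783000. The other 2 peaks, and most of the cluster's length, lay above the interval. The remaining 6 peaks stood alone: 2 below Mx1, 2 inside the Mx1 interval, 1 between the genes and 1 inside the Mx2 interval.

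**Figure D1:**
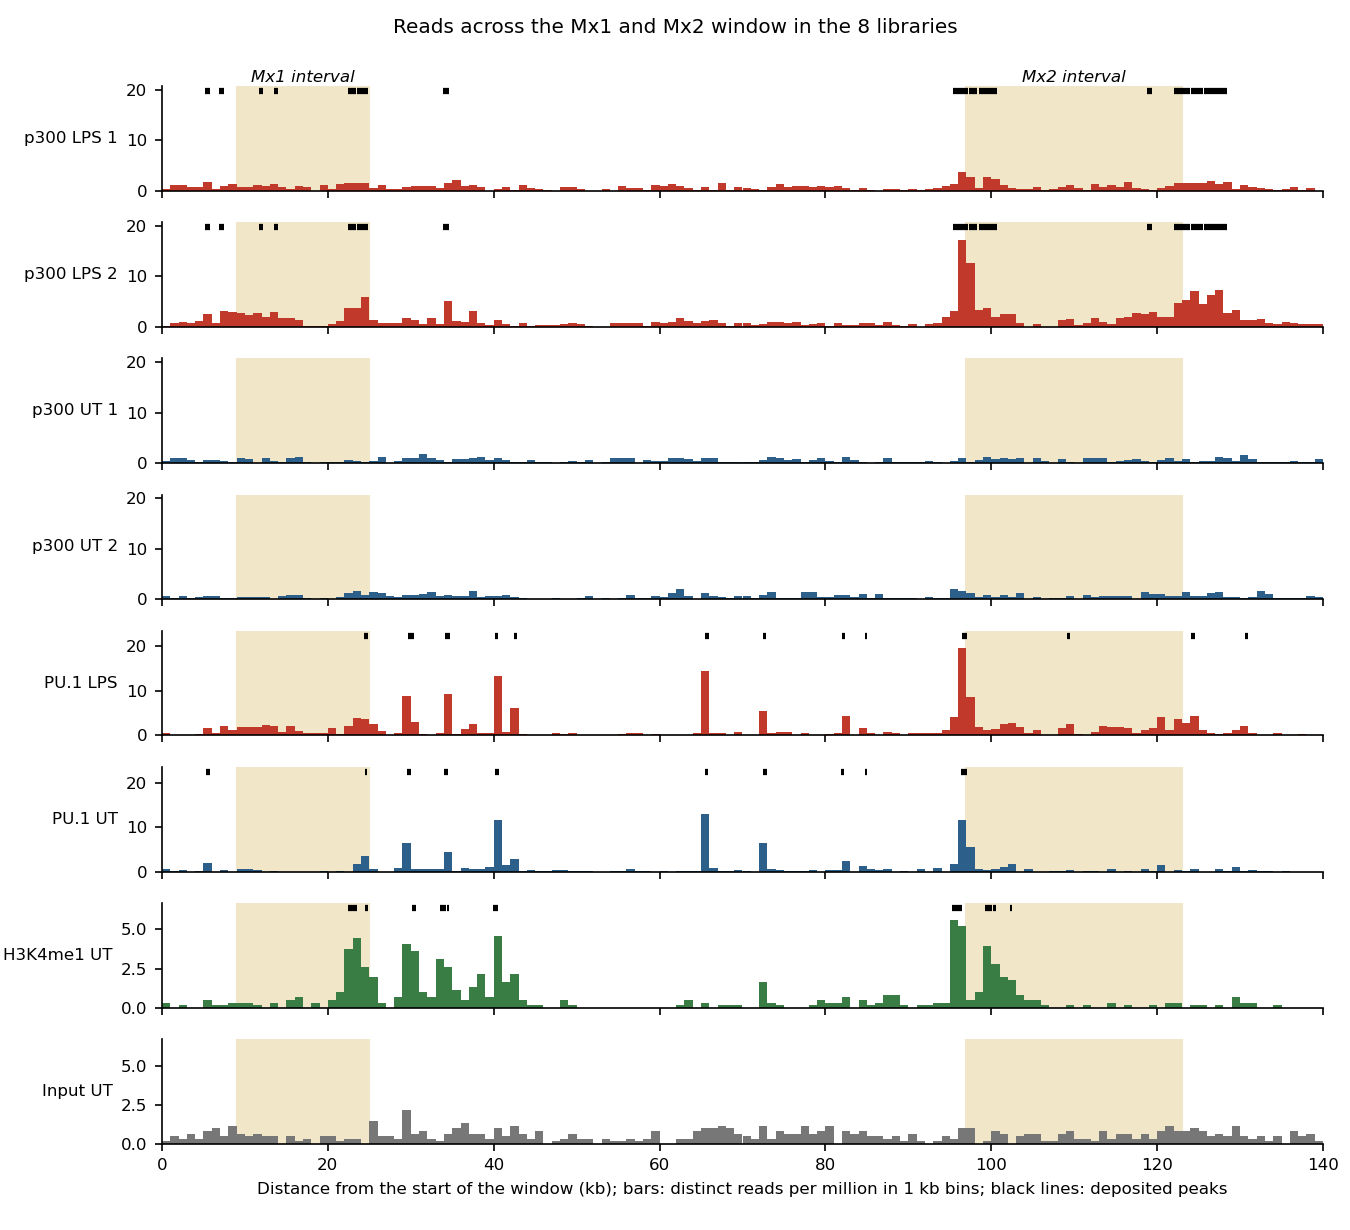
Distinct reads scaled to library size (RPM) in 1 kb bins (y axis) along the 140 kb window (x axis, kb from its start), 1 row per library, with deposited peaks as black lines and the approximate Mx1 and Mx2 intervals shaded. The row of LPS replicate 2 shows 3 clusters of p300 signal, at the upper end of Mx1 and both ends of Mx2. In LPS replicate 1 these are weaker, and some bins outside p300 peaks reach similar heights. The LPS p300 rows carry 16 peaks in all, and the untreated p300 rows show 0 peaks.

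The strongest p300 signal lay across the lower end of the Mx2 interval. The cluster there held 70 and 240 p300 reads in LPS replicates 1 and 2, against 25 and 38 reads in untreated replicates 1 and 2. Both LPS libraries were above both untreated libraries, also in normalised reads, and LPS replicate 2 stood highest. Ratios set libraries of the same number side by side, since these are alike in repeats and scaled size; nothing in the sources used here says that they were prepared together. The scaled LPS to untreated ratio was 2.18 (exact 95% interval 1.36 to 3.59) for the libraries numbered 1 and 7.23 (5.12 to 10.5) for those numbered 2. These intervals cover counting error only and are conditional on the sum of the reads of both libraries. With total reads in place of the scaled library sizes the ratios were 3.27 (2.05 to 5.39) and 6.44 (4.56 to 9.33).

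Inside that cluster the peak from 97755395 to 97757224 had the highest score of the window, 775.89, rank 181 of 12237 in the LPS list. It held 27 and 124 LPS reads in replicates 1 and 2, against 8 and 22 untreated reads. In normalised reads, which divide by library sizes scaled on all p300 sites, its mean was 60.0 ± 29.5 after LPS and 13.7 ± 1.67 in untreated cells (SD, n = 2 each). The log2 fold change was 1.98 ± 0.56 (SE, limma voom). The adjacent peak, 97757285 to 97758226, held 15 and 67 LPS reads, against 2 and 5 untreated reads, and its log2 fold change was 3.18 ± 0.75. The other peaks of the cluster had log2 fold changes of 1.84 ± 0.57 (97758559 to 97759940) and 2.16 ± 0.81 (97759996 to 97760687). In the last of these, 11 and 10 LPS reads stood against 4 and 2 untreated reads, and the normalised values of the conditions overlapped.

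The cluster across the upper end of the Mx2 interval was almost as large. It held 57 and 213 LPS reads in replicates 1 and 2, against 26 and 36 untreated reads. The scaled replicate ratios were 1.71 (1.06 to 2.83) and 6.78 (4.74 to 9.94). With total reads as library size the replicate 1 ratio was 2.56 (1.58 to 4.24). Its peak from 97784027 to 97785495 held 14 and 55 LPS reads, against 2 and 7 untreated reads (log2 fold change 2.65 ± 0.70). The widest peak of the window, 2822 bp from 97785599 to 97788420, held 26 and 99 LPS reads, against 16 and 17 untreated reads (1.60 ± 0.54). The peak from 97782004 to 97783995 held 17 and 59 LPS reads, against 8 and 12 untreated reads (1.82 ± 0.56).

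The cluster at the upper end of the Mx1 interval was weaker. It held 26 and 71 LPS reads in replicates 1 and 2, against 8 and 20 untreated reads, with replicate ratios of 2.53 (1.11 to 6.47) and 4.07 (2.45 to 7.05). The replicate 1 ratio was 3.80 (1.67 to 9.70) with total reads as library size. Its peak from 97683777 to 97684799 held 10 and 39 LPS reads, against 3 and 5 untreated reads (log2 fold change 2.48 ± 0.69). The peak from 97682370 to 97683415 held 11 and 26 LPS reads, against 3 and 14 untreated reads, and had the lowest log2 fold change of the 16 sites, 1.11 ± 0.60. Its raw LPS and untreated counts overlapped, while its normalised values did not. The third, from 97683487 to 97683739, held 5 and 6 LPS reads and 1 read in each untreated library.

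Of the peaks outside clusters, the one between the genes, 97693876 to 97694660, was the strongest, with a score of 175.00. It held 8 and 31 LPS reads, against 0 and 7 untreated reads (log2 fold change 2.60 ± 1.05). The other 5 had scores of 50.64 to 63.61 and few reads in any library. The highest log2 fold change of the window, 3.28 ± 1.18, was at one of them (97673489 to 97674036), from 5 and 14 LPS reads against 3 and 0 untreated reads. The last of them, 97778827 to 97779405, lay inside the Mx2 interval, held 2 and 15 LPS reads against 2 and 5 untreated reads, and its conditions overlapped in raw and normalised reads.

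All 16 sites had a log2 fold change above 0, and the median was 1.99, against 0.00 over all 19727 p300 sites fitted and 1.42 over the 7507 fitted sites with a peak in the LPS list alone. In 14 of the 16 both LPS libraries were, in normalised reads, above both untreated libraries, against 27.0% of all p300 sites. The fit across all p300 sites called 4 of the 16 higher at an adjusted p under 0.05 (limma voom, Benjamini-Hochberg), against 1.97% of all sites. Since the sites were chosen from peaks called on these same reads, nothing is read from these counts. None of the 16 was called without either LPS library or without untreated replicate 2, and 7 were called without untreated replicate 1. None was called when library sizes came from total reads or from background bins.

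**Figure D2:**
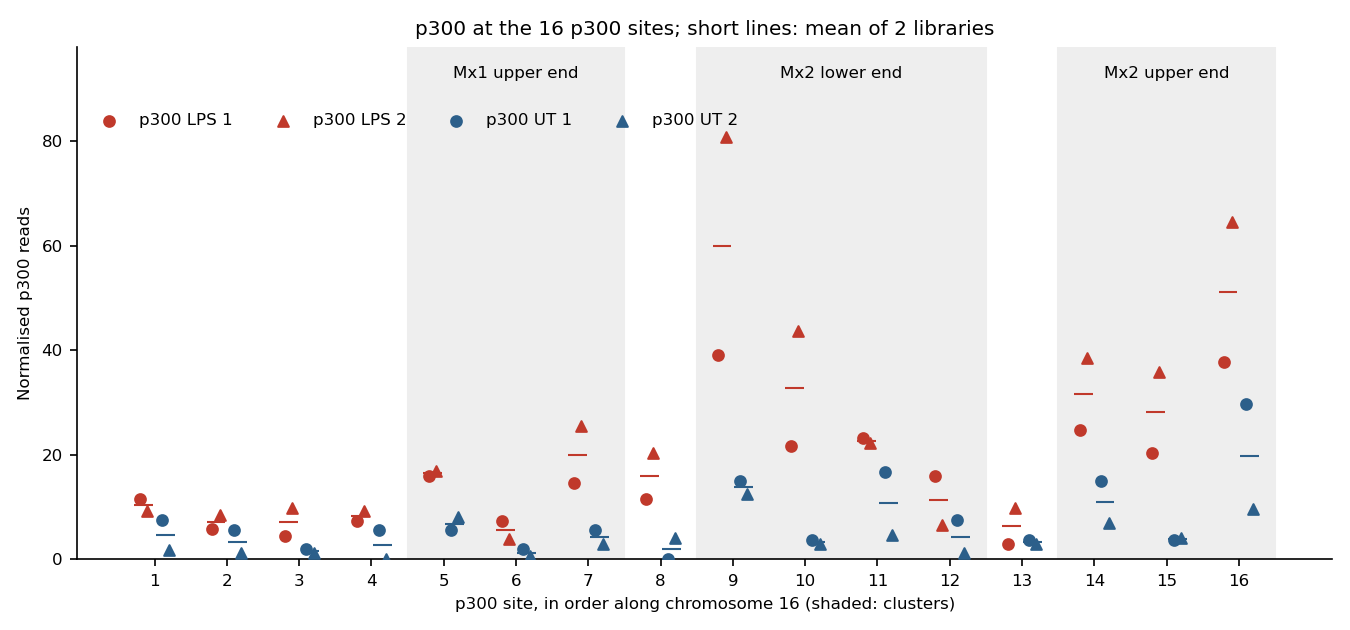
Normalised p300 reads (y axis) at the 16 p300 sites in their order along chromosome 16 (x axis), LPS libraries left in red and untreated libraries right in blue, with short lines for the mean of 2 libraries. In 14 of the 16 sites both red points lie above both blue points, and LPS replicate 2 reaches the highest values in the clusters at the ends of Mx2.

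Sites defined by PU.1 or by H3K4me1 were not called on p300 reads, although the window itself was picked with earlier results known. Many lay under LPS p300 peaks all the same. These were 4 of the 13 LPS PU.1 peaks and 8 of the 11 H3K4me1 peaks, beside 9.14% and 9.30% over the genome. The p300 counts at these sites are therefore not independent of the p300 peaks. At the 14 PU.1 sites, merged from both PU.1 lists, both LPS p300 libraries were above both untreated ones at 7 sites and below at 2, against 14.5% above over all PU.1 sites. Of the 14 sites, 8 had the 10 p300 reads needed for the fit across all PU.1 sites, and the 6 left out had fewer. This minimum sums the reads of both conditions, so a site can pass it through its LPS reads alone. The 2 sites with LPS below were among those left out. Without the minimum, 9 of the 14 had a log2 fold change above 0. Of these 9, 5 had an unadjusted limma voom p under 0.05, against 2220 of 86330 PU.1 sites higher at that p. None of the 8 was called higher (limma voom, adjusted p under 0.05), against 0.0918% of all PU.1 sites. Of the 8, 6 had an unadjusted p under 0.05 with a higher value, against 4.75% of all PU.1 sites, and limma-trend called 2. The smallest adjusted p was 0.150 by limma voom, at the PU.1 site from 97756367 to 97757096, which lies in the lower-end cluster of Mx2. That site held 18 and 93 p300 reads after LPS, against 4 and 10 in untreated cells (log2 fold change 2.53 ± 0.71). It passed the threshold with limma-trend (adjusted p = 0.0078), with a minimum of 40 reads (limma voom, 0.00832), with the file number as a replicate block (limma voom, 7.9e-05) and without untreated replicate 1 (limma voom, 0.0423). Over the other alternatives its limma voom adjusted p lay between 0.132 and 1.00.

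Among the PU.1 sites fitted, those under a p300 peak had log2 fold changes of p300 between 2.12 and 3.53, which the p300 peaks themselves favour. The PU.1 site below Mx1, from 97665360 to 97665761, held 4 and 13 p300 reads after LPS, against 2 and 1 in untreated cells (log2 fold change 2.77 ± 0.99). The PU.1 site from 97693962 to 97694676, between the genes and under a p300 peak, held 8 and 30 p300 reads after LPS, against 0 and 5 in untreated cells (log2 fold change 2.64 ± 1.12, limma voom adjusted p = 0.669). The site from 97684365 to 97684794, in the Mx1 cluster, held 6 and 22 LPS p300 reads, against 1 and 4 untreated reads (2.12 ± 0.80). The site from 97784132 to 97784609, in the upper-end Mx2 cluster, held 4 and 19, against 0 and 1. Outside p300 peaks, the site with the highest PU.1 scores of the window, 533.28 after LPS and 513.82 in untreated cells, lay between the genes from 97725437 to 97725973 and held 3 and 4 p300 reads after LPS, against 3 and 3 in untreated cells (0.52 ± 0.79). The site from 97689529 to 97690366, also between the genes, held 5 and 9 p300 reads after LPS, against 4 and 3 in untreated cells (1.34 ± 0.68). Its normalised values stood just apart. The site from 97700185 to 97700624 held 1 and 5 LPS p300 reads, against 4 and 3 untreated reads (0.29 ± 0.86). At the sites from 97732507 to 97732899 and from 97741868 to 97742349 both LPS libraries were below both untreated libraries, with 1 read in each LPS library against 4 and 3 and against 2 and 3 untreated reads.

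At the 11 H3K4me1 peaks, all with enough p300 reads, both LPS p300 libraries were above both untreated ones at 8 peaks, against 16.7% of all H3K4me1 peaks. None was called higher by limma voom in the fit across all H3K4me1 peaks (0.0582% of all were), while 3 had an unadjusted p under 0.05, against 2.72% of all peaks, and limma-trend called 0. With the file number as a replicate block 2 of the 11 were called. The peak from 97759293 to 97760071, inside the lower end of Mx2, held 15 and 16 p300 reads after LPS, against 7 and 3 in untreated cells (log2 fold change 1.93 ± 0.59, limma voom adjusted p = 0.479). The peak from 97755216 to 97756488 held 11 and 41, against 4 and 12 (1.64 ± 0.55, limma voom adjusted p = 0.714). Only the peak from 97699891 to 97700513 had a log2 fold change below 0 in this fit, -0.16 ± 0.68, with 2 and 6 LPS reads against 5 and 5 untreated reads. It and 2 others had no p300 peak. Of those, the peak from 97690089 to 97690570 held 2 and 6 LPS reads against 3 and 3 untreated reads, and the peak from 97762222 to 97762549 held 1 and 9 against 1 and 1. These peaks share reads with the PU.1 and p300 sites they overlap, so the 3 sets of sites are not independent measurements.

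H3K4me1 in untreated cells differed between the p300 sites. Within 1 kb of the site centre, H3K4me1 exceeded input at 8 of the 16 sites and was below it at the other 8. An H3K4me1 peak overlapped 7 of the 16 LPS p300 peaks, beside 33.1% of the 7568 LPS p300 peaks of the genome without an untreated p300 peak. The sites above input were those of the Mx1 upper-end cluster, the peak between the genes and those of the lower-end cluster of Mx2. Only the lower-end site from 97757285 to 97758226 among them overlapped no H3K4me1 peak. It held 5 H3K4me1 and 4 input reads itself. At the Mx1 cluster, 58 H3K4me1 reads stood against 2 input reads, and at the lower-end cluster of Mx2, 109 against 16. The log2 of H3K4me1 over input, scaled to depth with 1 read added to each, was taken within 1 kb either side of the centre. It was 3.31, 3.99 and 3.58 at the 3 Mx1 sites and 2.14 at the site between the genes. At the lower end of Mx2 it was 2.69, 0.58, 3.80 and 2.58. The median was 0.52 over p300 sites with a peak in the LPS list alone, with quartiles of -1.01 and 1.99. Over all p300 sites it was 1.37, with quartiles of -0.59 and 2.49. Sites on either side of input are thus common over the genome, and nothing is read from the counts of 8 and 8. The 8 sites below input rest on few reads, 1 to 4 of H3K4me1 and 4 to 13 of input within 1 kb of the centre.

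The upper-end cluster of Mx2 had no H3K4me1 peak and lay below input. It held 5 H3K4me1 reads against 29 input reads over 6417 bp, and its log2 ratios were -1.88, -2.82 and -2.01. The p300 signal of this cluster after LPS, 57 and 213 reads, was thus close to that of the lower-end cluster, 70 and 240 reads, while H3K4me1 in untreated cells held 5 reads here and 109 there. The 4 isolated sites below and inside the Mx1 interval also lay below input (log2 ratios -2.01 to -0.75), as did the isolated site inside the Mx2 interval (-1.82). H3K4me1 after LPS was not analysed here.

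The H3K4me1 signal at the lower end of Mx2 flanked the p300 and PU.1 signal. An H3K4me1 peak with a score of 415.27, the highest of the window, ran from 97755216 to 97756488 and held 61 reads against 4 input reads. The PU.1 site over its upper edge, 97756367 to 97757096, held 10 H3K4me1 and 5 input reads. The p300 peak from 97757285 to 97758226 held 5 H3K4me1 and 4 input reads. H3K4me1 returned in the peaks from 97759293 to 97760071, with 21 H3K4me1 reads against 1 input read, and from 97760185 to 97760538, with 10 against 1. The highest p300 and PU.1 signal thus lay between both stretches of H3K4me1, over DNA with few H3K4me1 reads.

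**Figure D3:**
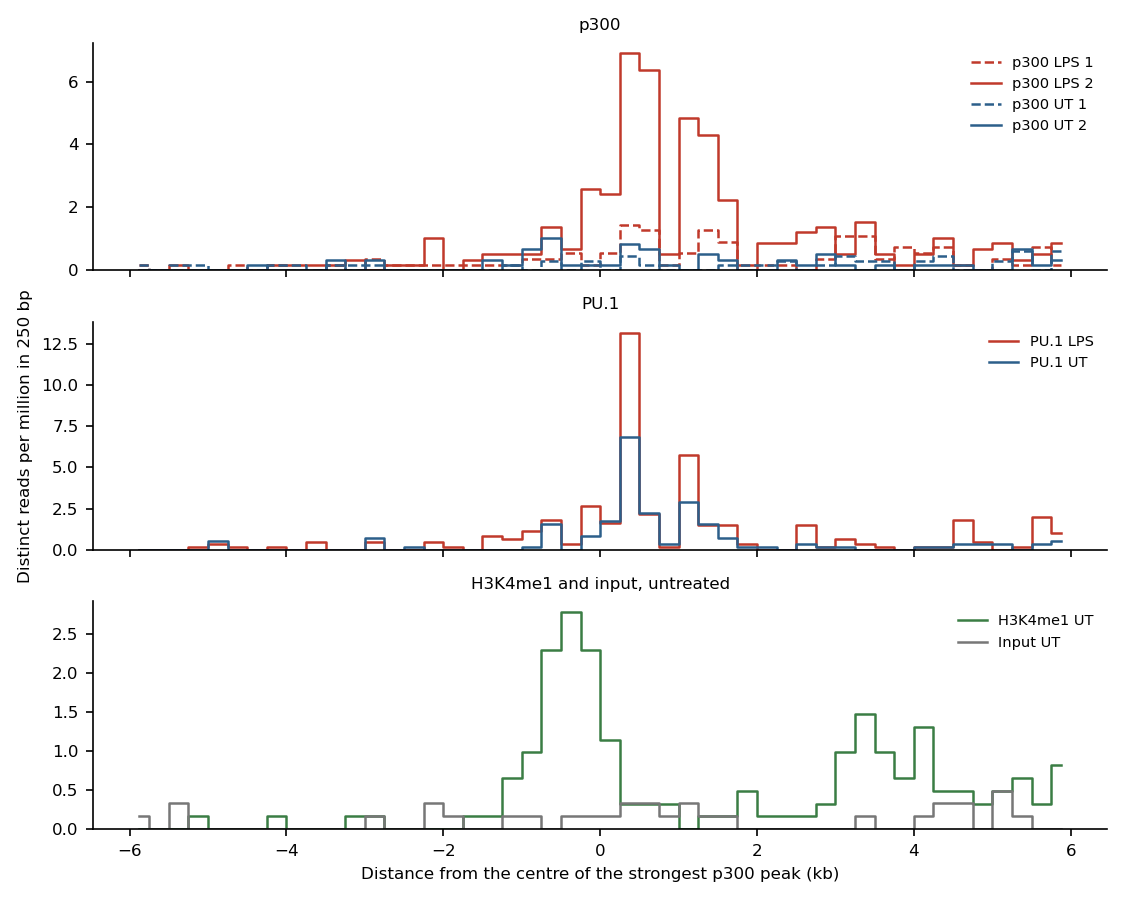
Distinct reads scaled to library size (RPM) in 250 bp bins (y axes) by distance from the centre of the strongest p300 peak, at the lower end of Mx2 (x axis, kb), for p300 (top, replicate 1 dashed), PU.1 (middle) and H3K4me1 with input (bottom). The highest p300 and PU.1 bins lie above the centre of that peak, in bins where H3K4me1 is low, between H3K4me1 peaks of 61 and 21 reads.

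In untreated cells PU.1 was already present, with most peaks centred between the genes, a stretch of 72000 bp in the 140 kb. Of the 10 untreated PU.1 peaks, 8 had their centre between the intervals, 1 in the Mx1 interval and 0 in the Mx2 interval. Among the 8, the peak from 97756367 to 97757092 reached over the lower edge of the Mx2 interval and held 64 untreated PU.1 reads. Of the 10, 9 overlapped a PU.1 peak of the LPS list, beside 80.8% of all untreated PU.1 peaks. Of the 13 LPS PU.1 peaks, 4 overlapped no untreated one, beside 20.4% of all LPS PU.1 peaks. They ran from 97702458 to 97702822, from 97769179 to 97769472 inside the Mx2 interval, from 97784132 to 97784609 in its upper-end cluster and from 97790623 to 97791000. Of the 16 LPS p300 peaks, 4 overlapped an untreated PU.1 peak, beside 30.4% of all LPS p300 peaks without an untreated p300 peak.

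At the PU.1 peaks shared by both lists, the ratio of PU.1 reads ranged from near 1 to near 2-fold. The site from 97725437 to 97725973 held 88 PU.1 reads after LPS, against 74 in untreated cells, a ratio of 1.14 (exact 95% interval 0.829 to 1.58). The site from 97700185 to 97700624 held 81, against 66 (1.18, 0.841 to 1.66). At the lower end of Mx2, the site from 97756367 to 97757096 held 103, against 64 (1.55, 1.12 to 2.15), and between the genes the site from 97693962 to 97694676 held 57, against 26 (2.11, 1.30 to 3.49). Of the 14 PU.1 sites, 12 had a ratio above 1, beside 44.9% of all PU.1 sites, and 7 had an interval above 1, beside 6.91%. None had an interval above 2-fold. Among all PU.1 sites with 40 or more PU.1 reads, 0.475% had an interval above 2-fold, and 8 of the 14 had that many reads. These ratios compare single libraries, so no test across libraries was possible.

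At the 16 p300 sites, the ratio of PU.1 reads was above 1 at 15, beside 43.2% of all p300 sites, and its interval was above 1 at 10, beside 8.26%. The 11 p300 sites without a PU.1 peak held 191 PU.1 reads after LPS, against 55 in untreated cells, and each of the 11 had more LPS than untreated reads, beside 42.1% of such sites of the LPS list alone and 37.0% of all p300 sites without a PU.1 peak. Their pooled ratio was 3.34 (exact 95% interval 2.46 to 4.59), beside 1.58 (1.54 to 1.61) over the 4717 p300 sites of the LPS list alone without a PU.1 peak. Outside every deposited peak of the window the PU.1 ratio was 2.54 (2.14 to 3.02), an interval that overlapped that of the 11 sites. The 55 untreated PU.1 reads stood against 38 input reads, and the exact 95% interval of their ratio, 0.977 to 2.34, included 1. Whether the rise was particular to these sites was not tested. The site from 97782004 to 97783995 held 40 PU.1 reads after LPS, against 3 in untreated cells and 10 in input, a PU.1 ratio of 12.8 (4.08 to 64.7). Among the 5 p300 sites of the window with 40 or more PU.1 reads, it was the only one whose interval lay above 2-fold, beside 1.38% of p300 sites of that depth in the genome. That depth sums the reads of both conditions, and this site reached it through its LPS reads, so nothing is read from this share. The site from 97671669 to 97672220, also without a PU.1 peak, had an interval above 2-fold from 14 LPS reads and 1 untreated read. So did the site from 97784027 to 97785495, which has a PU.1 peak of the LPS list, from 29 and 4 reads. Over the upper-end cluster of Mx2, PU.1 reads numbered 82 after LPS, against 11 in untreated cells, a ratio of 7.16 (3.80 to 14.9). Over the lower-end cluster they numbered 214, against 117 (1.76, 1.40 to 2.22).

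**Figure D4:**
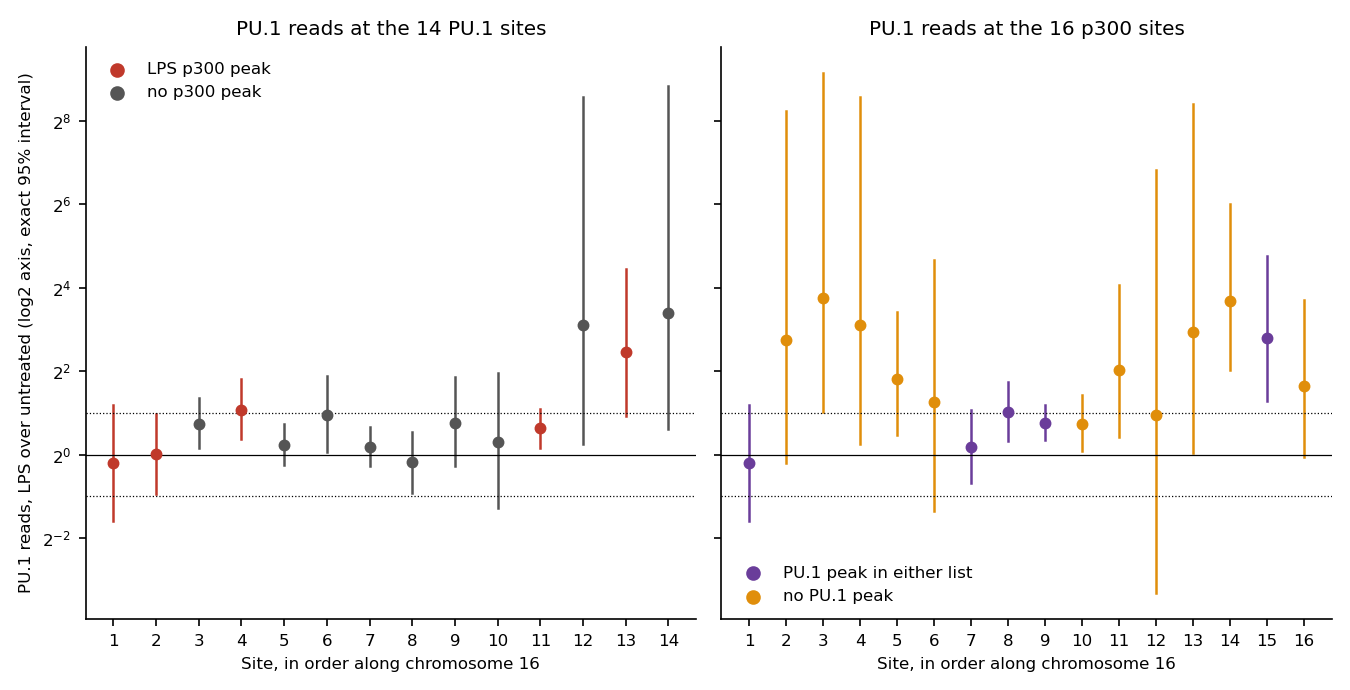
Ratio of PU.1 reads, LPS over untreated, on a log2 axis with exact 95% intervals of counting error (y axis), at the 14 PU.1 sites (left) and the 16 p300 sites (right) in order along chromosome 16; the solid line marks a ratio of 1 and dotted lines 2-fold. The p300 sites without a PU.1 peak, in orange, all lie above a ratio of 1, and 1 of the 16 p300 sites lies below it.

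Outside the peaks, PU.1 reads after LPS were also more numerous over both gene intervals, while p300 reads were so in replicate 2 but not beyond counting error in replicate 1. In the 12457 bp of the Mx1 interval outside every deposited peak, the PU.1 library held 89 reads after LPS, against 9 in untreated cells, a ratio of 9.50 (exact 95% interval 4.79 to 21.5). p300 there held 49 and 94 reads in LPS replicates 1 and 2, against 42 and 33 in untreated replicates 1 and 2. In the 20507 bp of the Mx2 interval outside peaks, PU.1 held 172 reads after LPS, against 42 (3.93, 2.79 to 5.65), and p300 held 77 and 153, against 77 and 68. In the 65261 bp between the intervals outside peaks, PU.1 held 185, against 114 (1.56, 1.23 to 1.99), and p300 held 211 and 276, against 234 and 220. The PU.1 ratio was thus higher over Mx1 and over Mx2 than between the genes, and the 95% interval over either gene lay above that between them.

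For p300 outside peaks, the total-read ratio of the libraries numbered 2 was 2.91 (1.94 to 4.46) over Mx1, 2.30 (1.71 to 3.10) over Mx2 and 1.28 (1.07 to 1.53) between them. For those numbered 1 it was 1.36 (0.884 to 2.11), 1.17 (0.840 to 1.62) and 1.05 (0.870 to 1.27), and all 3 intervals included 1. Scaled to length and library size (RPKM), PU.1 over the Mx1 interval outside peaks stood at 1.18 after LPS and at 0.124 in untreated cells, beside 0.358 in untreated input. Input of LPS-treated cells was not analysed here, so its part in these reads was not tested.

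Over the whole 140 kb, p300 reads numbered 604 and 1312 in LPS replicates 1 and 2, against 517 and 520 in untreated replicates 1 and 2. Ratios over windows used total reads as library size. Library sizes scaled on p300 sites were 74.0% and 49.4% of the totals in LPS and untreated replicate 1. Scaling by them would lower the replicate 1 ratio, so its rise rests on total reads, and would raise that of replicate 2. Among 17422 windows of this size with at least 100 input reads, the window ranked 97 by the p300 ratio of replicate 1 (1.36, exact 95% interval 1.21 to 1.54) and 2 by that of replicate 2 (2.57, 2.32 to 2.85). By the ratio of PU.1 reads, 1309 after LPS against 643 in untreated cells, it ranked 43 (1.96, 1.78 to 2.15). The medians over windows were 1.00, 1.00 and 1.04. By H3K4me1 over input it ranked 3731, with 536 reads against 461. The windows were laid end to end, on chromosome 16 so that one of them was exactly the Mx1 and Mx2 window. On the other chromosomes they began at the chromosome start, where a cut can split a cluster, so the placement favours the Mx1 and Mx2 window.

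By peak lists the window was at the edge of the genome's range. Of 18840 windows of 140 kb, 4 held 16 or more LPS p300 peaks. The other 3 of them, on chromosomes 11, 12 and 14, held 17, 16 and 17 LPS p300 peaks and 7, 1 and 6 untreated ones, while the Mx1 and Mx2 window held 16 and 0. Among other windows without an untreated p300 peak, the most LPS p300 peaks was 7. The H3K4me1 list had 11 peaks here, against 32, 13 and 30 in the windows on chromosomes 11, 12 and 14. These ranks describe 1 pooled list per condition and carry no test. They also rest on the placement of windows given above, which holds the Mx1 and Mx2 clusters whole and can split clusters elsewhere.

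**Figure D5:**
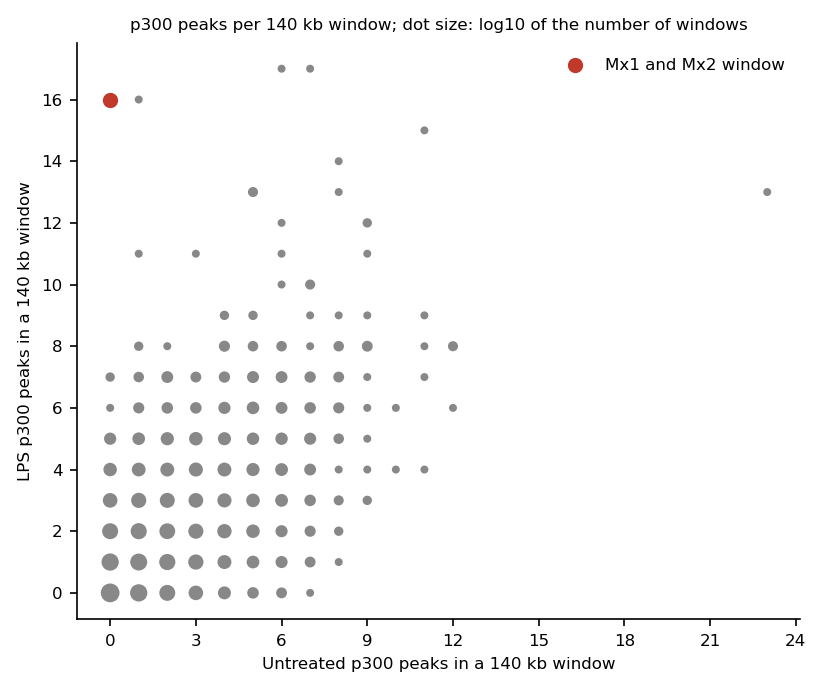
Number of LPS p300 peaks (y axis) against untreated p300 peaks (x axis) in each of 18840 windows of 140 kb, with dot size by the log10 number of windows. The window of Mx1 and Mx2, in red, has 16 LPS and 0 untreated p300 peaks, and no other window without an untreated peak has more than 7. The windows were placed to hold the Mx1 and Mx2 window whole, which favours it.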

How the data were processed

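The deposited files held aligned reads, 1 per line, and peak lists on build mm9, per the submitters' processing notes. The aligner is not given in the sources used here. Per the file headers, the peaks are from MACS, run against libraries called naked for p300, random for PU.1 and input for H3K4me1. The score deposited with each peak is 10 times the -log10 of its p-value. p300 lists pool 2 replicates, per the series' design text.

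Read counts were made here from the deposited reads. Repeats of a position on a strand were dropped, and 5' ends were moved 100 bp downstream. Sites of p300 and of PU.1 were the merged peaks of both lists. For p300, limma voom was used (limma 3.58.1, R 4.3.3), modelling treatment alone, with median-of-ratios library sizes and at least 10 reads over 4 libraries. It was fitted on all sites of each set with Benjamini-Hochberg adjustment. A check used simulated Poisson counts without variation between replicates and changed only sites with at least 40 reads. The real p300 libraries differ more, so that check cannot show how reliable the calls are here. Overlap means at least 1 bp. A PU.1 ratio was called when its exact 95% interval lay beyond 2-fold. Coordinates count from 1. Python 3.11.15 and scipy 1.17.1 were used.

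The members, lists and tests were chosen with earlier results of these data known. Every p300 site was to be described, and of the PU.1 and H3K4me1 peaks without a p300 peak the 5 with the highest score in each list; other peaks named were chosen after their values were seen. Planned comparisons with other interferon-induced genes, macrophage markers and genes of like pattern needed an mm9 annotation and were not made. No sequence of the window was used here. Alternatives changed scaling, filters, repeats, read shift, flank, score, overlap and libraries.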

Additional observations from a re-analysis of the deposited data

How the results depend on the processing

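The log2 fold change at all 16 p300 sites was above 0 under all 12 alternatives (the minimum of 40 reads left 9 of the sites), which the choice of these sites favours. Calls were not stable. At p300 sites, 388 calls of higher p300 over the genome and 4 in the window became 0 and 0 when library sizes came from total reads or background bins (median log2 fold change of all p300 sites 0.20 and 0.16, against 0.00), 1214 and 7 with at least 40 reads, and 898 and 8 with a replicate block. Leaving out 1 library gave 0 to 443 calls over the genome and 0 to 7 in the window. At PU.1 sites, 43 and 0 became 0 and 0 with total reads or background bins, 6 without a filter, 455 and 1 with at least 40 reads, 176 and 2 with limma-trend and 496 and 3 with a replicate block, and leaving out 1 library gave 0 to 71 and 0 to 1. At H3K4me1 peaks, 35 and 0 became 0 and 0 with total reads or background bins, 7 with at least 40 reads, 16 with all reads kept and 406 and 2 with a replicate block, and leaving out 1 library gave 0 to 19 and 0 to 0. The replicate numbers come from file names only. Same-numbered libraries' deviations correlated at 0.14, 0.23 and 0.31 over p300, PU.1 and H3K4me1 sites, and with 2 pairs this does not pair them.

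Signs turned at sites with values near 0. At 97700185 the log2 fold change of 0.29 became -0.27 with total reads, -0.45 with background bins, -0.0698 without a filter, -0.19 with limma-trend and -0.93 to 0.68 with 1 library left out, and at 97725437 that range was -0.42 to 0.76. At 97699891, -0.16 became 0.20 with all reads kept, and leaving out 1 library gave -0.70 to 0.20; at 97690089 it gave -0.00783 to 0.91. The PU.1 ratio at 97684365 was 0.951 with all reads kept. The median H3K4me1 log2 ratio over the 16 sites, -0.08, became 0.11 within 2 kb and 0.11 with all reads kept, with 8 sites on either side of 0. With the 5' ends moved 50 bp, 1 PU.1 site had an interval above 2-fold, against 0. With a score of at least 100, 9 LPS p300, 8 LPS PU.1 and 5 H3K4me1 peaks were left. The cause of these moves was not tested. Depth limits single sites: 7 of the 16 p300 sites had fewer than 40 p300 reads, and 2 libraries per condition carry each p300 value.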
